A study of Mus musculus with 2 samples.

Results

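The genes described here were 9 genes of the lysosome, measured by single-cell RNA sequencing in the striatum of adult mice. They were taken by symbol from the gene lists of both count matrices, where all 9 of 9 were found among 32285 genes. *Ctsb*, *Ctsl*, *Ctss* and *Ctsz* encode cysteine cathepsins, and *Lgmn* encodes legumain, a cysteine protease that cuts after asparagine. *Ctsd* encodes the aspartic protease cathepsin D, and *Hexa* the alpha subunit of beta-hexosaminidase, which removes terminal sugars from GM2 ganglioside. *Lamp1* and *Cd68* encode heavily glycosylated proteins of the lysosomal membrane.

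Both libraries belonged to 1 group, adult mouse striatum, as replicates 1 and 2. The mice were 8 to 10 weeks old by their labels and had received no treatment, and the labels name no transgene, deletion or other allele. The paper's methods give male sex and a somewhat lower age range for its striatal single-cell data. A strain tag gives C57/Bl6J and the preparation protocol gives C57BL/6NTac. The cells carry the label Glia enriched, and they were released with pronase and cleared of debris before loading on the 10x Genomics platform. No label says that the libraries came from separate mice. The p-values measure only how differences between cell classes vary between these 2 samples, which may be technical. This spread was pooled over the classes fitted together.

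Lysosomal proteases are made as inactive precursors, are carried to the lysosome largely by mannose 6-phosphate receptors, and are activated in its acid interior. Microglia and macrophages, the phagocytes of the brain and its borders, are known for a large degradative compartment, and *Cd68* and *Ctss* are often used to mark them. Transcription factors of the MiT/TFE family, TFEB among them, bind CACGTG-type elements in the promoters of many lysosomal genes. PU.1, a factor of the myeloid lineage, binds purine-rich elements with the core GGAA.

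Promoter sequence is shown for 2 members whose levels across cell classes differed in kind: *Ctss*, close to the reference for free RNA outside the myeloid cells, and *Lamp1*, highest in oligodendrocyte-like cells. Each run gives 250 bases before the start of the gene and 10 from the start on, 5′ to 3′ on the strand of the gene, from RefSeq on GRCm38.p6. Capitals mark TCACGTG and GAGGAAGT on either strand, overlapping matches included. The *Ctss* window lies at chr3:95526536-95526795 on the plus strand and the *Lamp1* window at chr8:13158911-13159170 on the plus strand.
Ctss: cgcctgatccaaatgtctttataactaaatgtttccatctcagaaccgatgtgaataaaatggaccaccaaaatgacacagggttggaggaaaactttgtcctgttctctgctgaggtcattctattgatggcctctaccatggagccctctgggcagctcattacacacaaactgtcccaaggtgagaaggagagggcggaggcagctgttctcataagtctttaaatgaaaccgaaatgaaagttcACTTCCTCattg
Lamp1: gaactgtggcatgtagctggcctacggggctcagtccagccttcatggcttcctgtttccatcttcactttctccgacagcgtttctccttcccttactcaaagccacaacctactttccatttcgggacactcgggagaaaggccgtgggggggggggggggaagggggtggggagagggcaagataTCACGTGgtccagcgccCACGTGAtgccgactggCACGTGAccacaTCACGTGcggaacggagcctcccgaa

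RefSeq promoter windows of 300 bases (250 before the start and 50 after it) were matched for 8 of the 9 members, *Ctsb* having no entry, and *Lgmn* had more than 1 window. The motifs were searched on both strands, and several hold one another. TCACGTG was present in windows of *Ctsd*, *Lamp1* and *Lgmn* and in 3.765% of 32851 promoters. Its palindromic core CACGTG occurred 4 times in *Lamp1* and 2 times in *Ctsd*, 1 time each in *Lgmn* and *Ctsl*, and in 7.15% of all promoters. The longer TCACGTGA was in *Ctsd* (0.9741% of promoters), and the consensus named CLEAR, which holds it, in none of the matched windows (0.3257%). GTCACATG was in *Ctss* (1.476%). Of the purine-rich motifs, GAGGAA was in *Ctss* and *Cd68* (28.28%), and AGGAAGT (9.351%) and the overlapping GAGGAAGT (3.202%) in *Ctss* alone among the matched members. The gene annotation used for positions starts *Ctsd*, *Lgmn* and *Ctsl* further upstream than these RefSeq starts. Of the 300 bases of the *Ctsd* window 261 lay inside the annotated gene, and the *Ctsl* window and the *Lgmn* window with the matches lay wholly inside it. The *Lgmn* window nearest the annotated start had no TCACGTG. These matches describe letters in a window and show no binding.

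The 2 libraries held 6978 and 5437 barcodes with 44597660 and 37982720 unique molecular identifiers (UMIs, counted RNA molecules), a median of 3852 and 5375 per barcode. After filters, 6802 and 5205 cells were clustered without the 9 members and without 90 other lysosomal genes. The clusters were named from cell type markers as "like" classes, since no annotation of the study was used. Only 9 barcode sequences were shared by both libraries. Microglia-like cells numbered 1117 and 1022, with all 9 of 9 microglia markers raised. Macrophage-like cells numbered 94 and 76. The other 10 classes in the fit, called non-myeloid here, were astrocyte-, oligodendrocyte-, OPC- (oligodendrocyte precursor), endothelial-, mural-, neuroblast-, progenitor-, neuron-, ependymal- and fibroblast-like. They ranged from 21 fibroblast-like cells of library 2 to 1309 astrocyte-like cells of library 1. Levels are given as CPM, the UMIs of a gene per 1000000 UMIs summed over the cells of a class in 1 library.

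**Figure D1:**
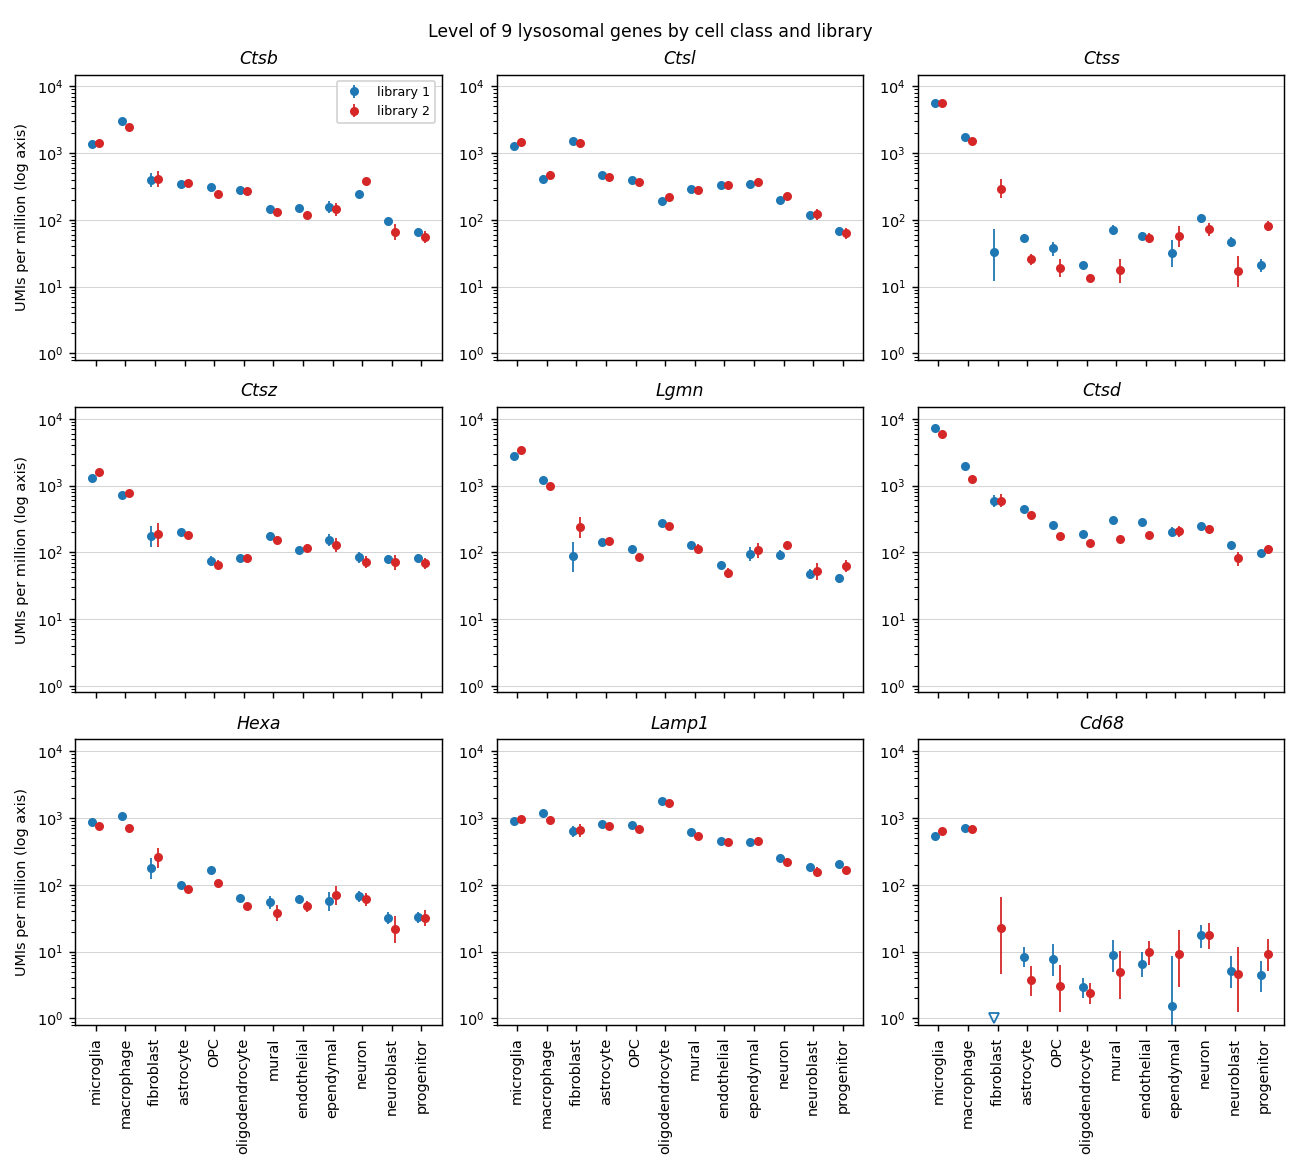
Level of each gene (CPM, log axis) in 12 cell classes, with library 1 in blue and library 2 in red, 95% exact Poisson intervals that cover counting error only, and an open triangle for a count of 0. By the mean of the 2 libraries, *Ctss*, *Ctsd*, *Lgmn* and *Ctsz* were highest in microglia-like cells, and *Ctsb*, *Hexa* and *Cd68* in macrophage-like cells. *Ctsl* was highest by mean in fibroblast-like cells and *Lamp1* in oligodendrocyte-like cells. In library 2 microglia-like cells exceeded fibroblast-like cells in *Ctsl* (1476 against 1406 CPM) and macrophage-like cells in *Hexa* (749 against 712 CPM).

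All 9 members were higher in microglia-like cells than in the mean of the 10 non-myeloid classes. In that comparison 34.8% of the 15120 genes tested were called higher. The median log2 fold change of the members was 4.18, against −0.04 over all genes tested. The comparison sets the log2 level in microglia-like cells against the unweighted mean of the log2 levels of the 10 classes. It was fitted with edgeR's quasi-likelihood test on class sums, with TMM scaling and Benjamini-Hochberg adjustment over all genes tested. The clusters were built from other genes of the same cells, and the p-values do not account for the choice of clusters.

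*Ctss*, which encodes cathepsin S, a protease that trims the invariant chain in antigen presentation, measured 5599 and 5534 CPM in microglia-like cells of libraries 1 and 2. The lowest level was 20.9 and 13.5 CPM in oligodendrocyte-like cells. Microglia-like cells exceeded every other class in both libraries, and the log2 fold change over the non-myeloid mean was 7.36 ± 0.26 (SE), a 165-fold difference (edgeR adjusted p = 6.257e-17). The SE given with edgeR values throughout was derived from the test, as the absolute log2 fold change over the square root of the F statistic. It is approximate, and least reliable for values near 0 or from few UMIs. *Ctss* lies at chr3:95526786-95556403, and its gene identifier in the files is ENSMUSG00000038642. After thinning each cell to 1000 UMIs, 98.7% and 99.7% of microglia-like cells had at least 1 *Ctss* UMI, against 2.91% and 1.44% of oligodendrocyte-like cells. Without thinning the shares were 98.2% and 99.5% against 17.9% and 11.5%, at median depths of 6930 and 5502 UMIs against 11106.5 and 12138.5. Thinning kept 1018 of 1117 and 966 of 1022 microglia-like cells, and 1030 of 1080 and 1044 of 1052 oligodendrocyte-like cells.

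*Ctsd* measured 7273 and 5993 CPM in microglia-like cells and 99.2 and 111 CPM in progenitor-like cells, its lowest class by mean. The gene lies at chr7:142375911-142388038 on the minus strand. It was 42.2-fold higher in microglia-like cells than in the non-myeloid mean (log2 5.40 ± 0.11, edgeR adjusted p = 1.214e-20). Both microglia-like values lay above those of every other class. *Lgmn*, whose product processes other cathepsins to their mature forms, measured 2749 and 3431 CPM there and 46.9 and 52.3 CPM in neuroblast-like cells. Its difference was 41.9-fold (log2 5.39 ± 0.12, edgeR adjusted p = 4.315e-20).

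*Ctsz*, which encodes cathepsin Z, a carboxypeptidase, measured 1291 and 1578 CPM in microglia-like cells and 74.2 and 64.3 CPM in OPC-like cells, the lowest class. It was 18.2-fold higher in microglia-like cells (log2 4.18 ± 0.08, edgeR adjusted p = 6.631e-21). *Hexa* measured 859.5 and 749 CPM in them and 32.4 and 22.1 CPM in neuroblast-like cells, a log2 fold change over the non-myeloid mean of 4.09 ± 0.10 (edgeR adjusted p = 2.012e-19). *Cd68* measured 531 and 650.5 CPM in microglia-like cells. It was at or under 22.7 CPM in every non-myeloid class, with 0 UMIs in the fibroblast-like cells of library 1, whose 3-UMI limit was 16.8 CPM. Its log2 fold change was 6.82 ± 0.15 (edgeR adjusted p = 4.031e-20), so the range of *Cd68* outside the myeloid classes lay far below either myeloid value. In thinned cells 40.0% and 47.7% of microglia-like cells had a *Cd68* UMI, against 0.583% and 0.383% of oligodendrocyte-like cells.

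*Ctsb*, which encodes the abundant endo- and exopeptidase cathepsin B, measured 1348 and 1400 CPM in microglia-like cells and 66.4 and 55.7 CPM in progenitor-like cells. Its log2 fold change was 3.36 ± 0.11 (edgeR adjusted p = 1.074e-17). *Ctsl*, encoding cathepsin L, measured 1275 and 1476 CPM in microglia-like cells, 1519 and 1406 CPM in fibroblast-like cells and 68.1 and 63.1 CPM in progenitor-like cells. It was 6.79-fold higher in microglia-like cells than in the non-myeloid mean (log2 2.76 ± 0.08, edgeR adjusted p = 1.606e-18), although the microglia-like and fibroblast-like values overlapped. *Lamp1* had the smallest difference, a log2 fold change of 1.48 ± 0.09 (edgeR adjusted p = 3.325e-12), with 915 and 978 CPM in microglia-like cells.

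Set against each non-myeloid class alone, 8 members were higher in microglia-like cells than in all 10 classes. These classes do not include the unnamed cluster described below, where the *Ctsl* level was above that of microglia-like cells. The share of all genes called higher was 20.2% against fibroblast-like, 24.5% against endothelial-like, 27% against mural-like, 27.8% against oligodendrocyte-like and 28% against ependymal-like cells. It was 30.1% against neuroblast-like, 31.7% against both OPC-like and progenitor-like, 32.5% against astrocyte-like and 35.4% against neuron-like cells. The exception was *Lamp1*, which was lower in microglia-like than in oligodendrocyte-like cells by a log2 fold change of −0.99 ± 0.14 (edgeR adjusted p = 2.642e-06) and higher than in the other 9 classes. The range over the 10 classes ran from 5.86 to 8.41 for *Ctss*, from 4.15 to 6.45 for *Ctsd* and from 0.58 to 4.84 for *Ctsl*.

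Scaling moved these values. *Cst3*, the cystatin that inhibits cysteine cathepsins, alone gave 80380 and 77210 CPM in microglia-like cells, and their TMM factors were 0.745 and 0.754, below 1. With library sizes alone, the median of all genes in microglia-like cells over the non-myeloid mean was −0.46 in place of −0.04, a shift of 0.42. All 9 members were called higher under both scalings, and the members' median was 3.71 with library sizes alone. Of the single-class comparisons, 2 lost their call with library sizes alone: *Ctsl* against fibroblast-like cells went from 0.58 to −0.09 (edgeR adjusted p = 0.7228), and *Lamp1* against astrocyte-like cells from 0.63 to 0.27 (edgeR adjusted p = 0.08729).

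**Figure D2:**
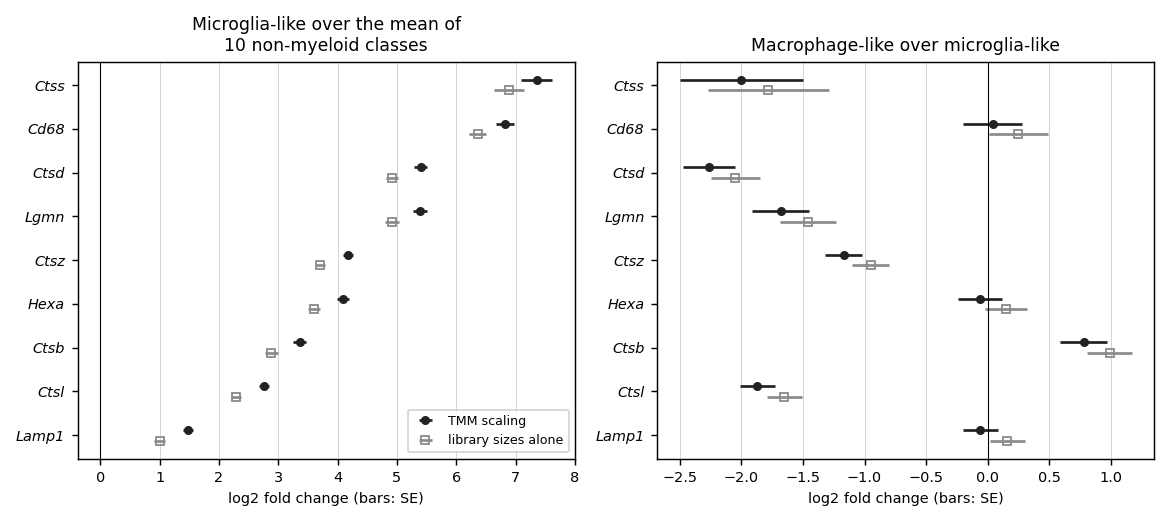
Log2 fold change with its SE of each member in microglia-like cells over the mean of 10 non-myeloid classes (left) and in macrophage-like over microglia-like cells (right), with TMM scaling (filled circles) and with library sizes alone (open squares). All 9 members lie above 0 on the left under both scalings, from *Lamp1* at 1.48 to *Ctss* at 7.36 with TMM, and on the right *Ctsb* lies above 0 while 5 members lie below −0.9 under both.

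Most UMIs of several members came from microglia-like cells. Their share of all UMIs of the gene in analysed cells was 94.3% and 94.7% for *Ctss*, 85.7% and 88.1% for *Cd68*, and 84.7% and 83.7% for *Ctsd*. It was 73.5% and 75.2% for *Lgmn*, 69.3% and 72.0% for *Ctsz*, and 66.0% and 65.6% for *Hexa*. For *Ctsb* and *Ctsl* it was under 50%, at 48.5% and 46.6% and at 39.3% and 38.9%. *Lamp1* stood apart at 15.2% and 14.0%, with 52.1% and 56.8% of its UMIs in oligodendrocyte-like cells. These shares follow the number and depth of the cells captured in each class as well as the level of the gene. The analysed cells also include the unnamed cluster described below, whose *Ctsl* level was above every class of the fit. More *Ctsl* UMIs came from that cluster than from any class but microglia-like cells.

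Macrophage-like and microglia-like cells differed in 6 of the 9 members, where 18.9% of all genes were called in either direction. *Ctsb* was higher in macrophage-like cells, at 3029 and 2452 CPM against 1348 and 1400 CPM (log2 0.78 ± 0.19, edgeR adjusted p = 0.004304), and 6.32% of all genes were called higher. The 5 lower members were *Ctsd*, *Ctss*, *Ctsl*, *Lgmn* and *Ctsz*, where 12.5% of all genes were called lower. *Ctsd* differed most, at 1975 and 1268 CPM in macrophage-like against 7273 and 5993 CPM in microglia-like cells (log2 −2.26 ± 0.21, edgeR adjusted p = 6.205e-08). *Ctss* measured 1730 and 1511 CPM in macrophage-like cells (log2 −2.0 ± 0.50, edgeR adjusted p = 0.006015), a call that DESeq2 did not make (log2 −1.70, adjusted p = 0.163). None of the values of these 3 genes overlapped between the 2 classes, each with 2 libraries. The share of all genes without such overlap is not given here.

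*Ctsl* was at 408 and 465 CPM in macrophage-like cells (log2 −1.87 ± 0.14, edgeR adjusted p = 2.769e-09). *Lgmn* was at 1225 and 998 CPM (log2 −1.68 ± 0.23, edgeR adjusted p = 1.375e-05) and *Ctsz* at 713 and 767 CPM (log2 −1.17 ± 0.15, edgeR adjusted p = 3.28e-06). The remaining members, a glycosidase subunit and both membrane proteins, did not pass the test. *Hexa* measured 1090 and 712 CPM in macrophage-like against 859.5 and 749 CPM in microglia-like cells (log2 −0.06 ± 0.18), and its values overlapped. *Lamp1* measured 1200 and 923 CPM against 915 and 978 CPM (log2 −0.06 ± 0.14). *Cd68* measured 720 and 683 CPM against 531 and 650.5 CPM (log2 0.04 ± 0.24), with no overlap in CPM but no difference beyond the spread in the fit.

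The macrophage-like class held markers of several cell types. All 8 of 8 macrophage markers were raised in it, with a summed level of 10990 CPM against 221 CPM in microglia-like cells. The microglia markers summed to 11320 CPM, against 28470 CPM in microglia-like cells. They did not move alike: *P2ry12* stood at 5.40% and 7.33% of its microglia-like level and *Tmem119* at 2.93% and 2.70%, but *C1qa*, a complement gene that macrophages also express, at 73.6% and 57.8%. All 5 of 5 lymphocyte markers, summing to 389 CPM, and all 5 of 5 monocyte or neutrophil markers, summing to 650.5 CPM, were raised too. The part of these cells in the 6 differences was not tested.

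The levels in non-myeloid classes were read against free RNA. Droplets take up RNA released by other cells, and 8 genes of microglia (*C1qa*, *C1qb*, *C1qc*, *P2ry12*, *Cx3cr1*, *Tmem119*, *Csf1r* and *Siglech*) were used as a reference for it. Their median level over the non-myeloid classes and libraries was between 0.484% and 0.837% of that in microglia-like cells of the same library. *Ctss* stood at a median of 0.746%, and it exceeded the highest reference gene in 4 of 20 class and library pairs and in no class in both libraries. The 4 pairs were endothelial-like, OPC-like and progenitor-like cells of library 2 and neuron-like cells of library 1. The level of *Ctss* outside the myeloid classes thus lay close to that of the reference genes, and the part of free RNA in it was not tested. *Cd68*, at a median of 1.11%, exceeded every reference gene in 15 of 20 pairs, and in 7 classes in both libraries. Its values in these 7 classes rest on few UMIs, from 4 in neuroblast-like cells of library 2 to 36 in oligodendrocyte-like cells of library 1. Whether they exceed the reference beyond counting error was not tested.

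The other 7 members were higher, at medians of 3.24% (*Ctsd*), 3.32% (*Lgmn*), 7.0% (*Ctsz*), 7.26% (*Hexa*), 14.6% (*Ctsb*), 22.7% (*Ctsl*) and 52.1% (*Lamp1*). All but *Lgmn* exceeded every reference gene in 20 of 20 pairs, and *Lgmn* did so in 18, failing in both libraries of the fibroblast-like class. In library 1 of that class *Lgmn* stood at 3.25%, below *Tmem119* alone among the reference genes (5.96%, from 17 UMIs). In library 2 it stood at 7.05%, below *Tmem119* (9.61%) and *Csf1r* (7.20%). The reference covers RNA from microglia only, and free RNA from other classes was not measured.

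**Figure D3:**
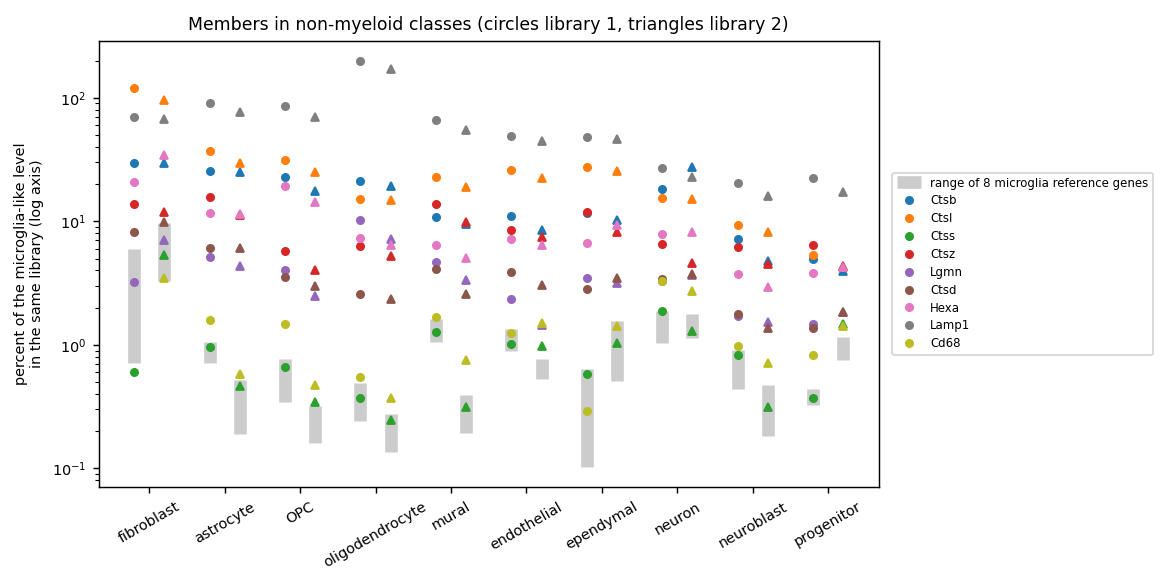
Level of each member in non-myeloid classes as a percent of its level in microglia-like cells of the same library (log axis), with circles for library 1, triangles for library 2 and grey bars for the range of 8 microglia reference genes. *Ctss* (green) lies within or near the grey bars, while *Lamp1* (grey points) lies between 16.04% and 199% and *Ctsl* (orange) between 4.27% and 119%.

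Within the non-myeloid classes, each class was set against the mean of the other 9. Of 90 pairs of member and class, 23 were called higher and 22 lower, and 24.3% of all pairs of gene and class were called higher and 16.8% lower. The higher calls of the members were thus near the background and the lower calls above it. The calls were unevenly spread over the classes.

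Astrocyte-like cells were higher in 7 of 9 members, where 27.4% of all genes were called higher. The log2 fold changes ran from 0.69 ± 0.14 (*Hexa*) to 1.15 ± 0.13 (*Ctsb*), and the same number was called with library sizes alone. *Ctsb* measured 347 and 354 CPM, *Ctsz* 202 and 179 CPM, and *Ctsd* 441 and 367 CPM. *Ctsl* measured 469 and 439 CPM and *Lamp1* 824 and 748 CPM. All of these lay above the neuroblast-like and progenitor-like values in either library. The share of all genes for which this holds is not given here. *Ctss* and *Cd68* were the members not called, and no member was lower, where 18.7% of all genes were called lower.

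Fibroblast-like cells were higher in 5 members, where 9.08% of all genes were called higher, and no member was lower, where 6.46% were. The class held only 35 and 21 cells, and it was absent from the fit at the clustering resolution of 0.08. *Ctsl* had the largest difference of any member in a non-myeloid class but *Lamp1* in oligodendrocyte-like cells, a log2 fold change of 2.42 ± 0.10 (edgeR adjusted p = 2.466e-14). *Hexa* measured 179 and 257 CPM (1.67 ± 0.23), *Ctsd* 592 and 597 CPM (1.38 ± 0.18) and *Ctsb* 397 and 416 CPM (1.02 ± 0.18). *Ctsz* was just past the threshold (0.60 ± 0.18, edgeR adjusted p = 0.03024). With cells thinned to 1000 UMIs the calls of *Ctsb*, *Hexa* and *Ctsz* were lost, and the direction of *Ctsz* turned. *Ctss* measured 33.5 CPM in library 1 and 295 CPM in library 2, where its 39 UMIs lay in 9.52% of the 21 cells, and the microglia markers summed to 452.5 and 1610 CPM.

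Neuroblast-like and progenitor-like cells were the low end of the order. Each was lower in 7 members, all but *Ctss* and *Cd68*, where 20.2% and 22.6% of all genes were called lower. No member was higher in either class, where 24.3% and 26% of all genes were called higher. *Ctsl* fell to 119 and 121 CPM in neuroblast-like cells (log2 −1.38 ± 0.12) and to 68.1 and 63.1 CPM in progenitor-like cells (−2.31 ± 0.13). *Lamp1* was at 187 and 157 CPM and at 206 and 170 CPM (−1.64 ± 0.13 and −1.49 ± 0.12). These counts were the same with library sizes alone. At the clustering resolution of 0.08 no progenitor-like class entered the fit.

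Neuron-like cells were higher in *Ctsb* and *Cd68*, where 26.8% of all genes were called higher. *Ctsb* measured 246.5 and 385 CPM (log2 0.70 ± 0.14, edgeR adjusted p = 0.0002122). *Cd68* measured 17.5 and 17.7 CPM, from 27 and 22 UMIs (1.34 ± 0.34, edgeR adjusted p = 0.002114), and this call was lost with cells thinned to 1000 UMIs (0.58, adjusted p = 0.3723). The microglia markers summed to 435 and 404 CPM in neuron-like cells, against 142 and 104 CPM in oligodendrocyte-like cells. *Cd68* stood at 3.29% and 2.72% of its microglia-like level there, and the reference genes at a median of 1.48% and 1.38%. The part of microglial RNA in this call was not tested. *Ctsl* (−0.61 ± 0.11), *Ctsz* (−0.68 ± 0.13) and *Lamp1* (−1.27 ± 0.12) were lower in neuron-like cells, where 23.8% of all genes were. OPC-like cells were higher in *Hexa*, at 167 and 107 CPM (0.81 ± 0.14), and in *Lamp1*, at 786 and 681 CPM (0.34 ± 0.10), where 23.6% of all genes were called higher, and lower in *Ctsz* (−1.08 ± 0.13), where 15.5% were. Mural-like cells were higher in *Ctsz*, at 178 and 155 CPM (0.71 ± 0.11), and in *Lamp1*, at 608 and 539 CPM (0.35 ± 0.11), where 24.8% were, and lower in *Ctsb* (−0.42 ± 0.16) and *Hexa* (−0.50 ± 0.18), where 15.1% were. Endothelial-like cells were higher in *Ctsl* alone, at 330 CPM in either library (0.42 ± 0.10), where 29.1% were, and lower in *Lgmn* (−0.74 ± 0.20), where 18.5% were. Ependymal-like cells were higher in no member, where 15.9% of all genes were, and lower in *Ctsb* (−0.58 ± 0.17), where 7.53% were. This turned with the scaling. With library sizes alone, which moved the median of all genes in ependymal-like cells from −0.04 to 0.19, *Ctsl* (0.41, edgeR adjusted p = 0.005195) and *Ctsz* (0.42, edgeR adjusted p = 0.02124) were higher and *Ctsb* was not called (−0.34, edgeR adjusted p = 0.1573). OPC-like cells then gained *Ctsb* (0.62) and *Ctsl* (0.50) as higher, with the median of all genes moving from −0.05 to 0.28. Fibroblast-like cells gained *Lamp1* (0.50) and neuron-like cells *Ctss* (1.03), and *Ctsb* was lower in endothelial-like cells (−0.52).

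Oligodendrocyte-like cells were higher in *Lamp1*, *Lgmn*, *Ctsb* and *Hexa*, where 35.7% of all genes were called higher, and lower in none, where 20.2% were called lower. *Lamp1*, a main glycoprotein of the lysosomal membrane, measured 1818 and 1680 CPM, above the highest other class by mean, macrophage-like cells at 1200 and 923 CPM. Its log2 fold change over the other non-myeloid classes was 2.74 ± 0.08 (edgeR adjusted p = 1.568e-17), and over macrophage-like cells 1.04 ± 0.15 (edgeR adjusted p = 2.719e-06). *Lgmn* measured 280 and 244.6 CPM, a log2 fold change of 2.16 ± 0.15 (edgeR adjusted p = 1.485e-11). *Ctsb* measured 284 and 271 CPM (1.29 ± 0.13). This class depended on scaling more than the others, with TMM factors of 0.706 and 0.686 and a shift of 0.55 in the median of all genes. With library sizes alone *Lamp1* (2.09), *Lgmn* (1.52) and *Ctsb* (0.64) were still called higher, and *Hexa* went to −0.26 (edgeR adjusted p = 0.1171). Called lower then were 5 members, namely *Ctsl* (−0.49), *Ctss* (−1.57), *Ctsz* (−0.45), *Ctsd* (−0.46) and *Cd68* (−1.24). The median of all genes was then −0.54, below the values of *Ctsl*, *Ctsz* and *Ctsd*. The share of all genes called lower with library sizes alone is not given here.

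A cluster of 143 and 128 cells led by *Bmp4*, *Fyn* and *Gpr17* was left unnamed and out of the tests. It had little of the precursor gene *Pdgfra*, at 10.1 and 6.18 CPM against 1226 and 1353 CPM in OPC-like cluster 12. *Ctsl* measured 2264 and 2297 CPM in this cluster, above every class of the fit in both libraries. In OPC-like clusters 12 and 16 it measured 370 and 349 CPM and 598 and 610 CPM, and in oligodendrocyte-like cluster 2 191 and 207 CPM. *Lgmn* was likewise higher in the unnamed cluster, at 436 and 516 CPM, than in the OPC-like clusters, at 82.8 to 174 CPM. *Lamp1*, at 1495 and 1529 CPM, lay between the OPC-like clusters, at 674 to 884 CPM, and the oligodendrocyte-like clusters, at 1599 to 2027 CPM. The cluster was singled out after its values had been seen, so these levels carry no test.

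**Figure D4:**
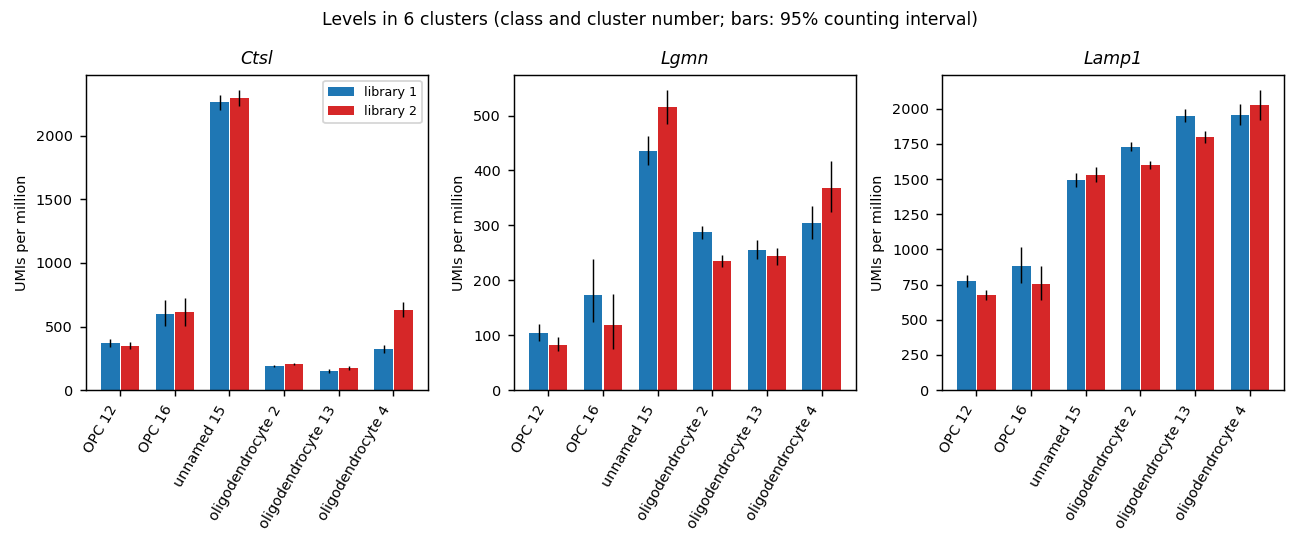
Levels (CPM) of *Ctsl*, *Lgmn* and *Lamp1* in 2 OPC-like clusters, the unnamed cluster and 3 oligodendrocyte-like clusters, with library 1 in blue, library 2 in red and 95% exact Poisson intervals. *Ctsl* stands at 2264 and 2297 in the unnamed cluster and at or under 632 in the other 5, and *Lamp1* is lower in the OPC-like than in the oligodendrocyte-like clusters.

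Microglia-like cells were divided into subclusters to ask whether the members varied among them. A shallow subcluster of 305 and 198 cells, led by *Ccl4* with a median of 1185 and 1348.5 UMIs, was set against the main one of 805 and 812 cells. Of 10711 genes, 7.48% were called, and by edgeR 0 of 9 members. At an unadjusted p under 0.05 there was 1, *Ctsl*, at 1660 and 1869 CPM against 1249 and 1452 CPM (log2 0.52 ± 0.18, edgeR adjusted p = 0.05572), and DESeq2 called it (adjusted p = 0.02777). The other 8 had log2 fold changes from 0.04 (*Ctsd*) to 0.31 (*Ctss*). The shallow subcluster also held more oligodendrocyte marker RNA, at 3771 and 2603 CPM against 1130 and 630 CPM, whose part in the *Ctsl* value was not tested.

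Other lysosomal genes were read from 10 lists with 90 genes in all, of which 86 were tested in microglia-like cells against the non-myeloid mean. Of these, 71 were higher and 5 lower, where 34.8% and 22.5% of all genes were. Their median log2 fold change was 1.36 over the 85 genes with UMIs in a non-myeloid class, against 4.18 for the 9 members. The counts depended on the scaling, with 59 higher and 13 lower with library sizes alone. The median of all genes then moved from −0.04 to −0.46. The shares of all genes called under that scaling are not given here.

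Nearly all genes of the 5 lists of soluble enzymes and activators were higher. Among the other cysteine cathepsins, 4 of 5 were higher, up to *Ctsc*, which activates granule proteases, at 312 and 366 CPM (log2 5.27). *Ctsk* did not pass, at 1.83 and 1.10 CPM against non-myeloid means of 24.8 and 20.3 CPM. Its estimate was too imprecise to judge a difference (log2 −1.09 ± 65.9). All 5 other peptidases were higher, from *Dpp7* (1.13) to *Ctsa* (3.64), the protective protein of beta-galactosidase. Of 15 glycosidases, 14 were higher, and *Gla*, the alpha-galactosidase, was the 1 lower gene (−0.995, with 2.11 and 2.20 CPM in microglia-like cells). All 6 sulfatases were higher, *Ids* by the least (1.07). So were 7 of 8 lipid hydrolases and activators, up to *Pla2g15* (4.91), whereas *Smpd1* did not pass (0.09).

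Membrane and pump genes moved less. Of 17 lysosomal membrane genes 16 were higher, but their median was 0.97, and only 11 were with library sizes alone. *Laptm5*, a membrane protein of blood and immune cells, was the exception at 2076 and 2282 CPM (7.32), *Lamp2* was at 2.02 and *Laptm4b* did not pass (−0.36). Subunits of the V-ATPase, the pump that acidifies the lysosome, divided. Of 17 tested, 10 were higher and 3 lower with TMM, from *Atp6v0e2* (−2.54) to *Atp6v0b* (1.23). With library sizes alone 6 were higher and 7 lower. Their median was then −0.06 in place of 0.41, while that of all genes was −0.46 in place of −0.04. Among cystatins *Cst3* was far higher (4.97), and *Cst6* did not pass (−0.41).

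Genes of the mannose 6-phosphate route went both ways. Of 6 tested, 3 were higher, 1 lower and 2 not called, and with library sizes alone 3 were higher and 3 lower. *Nagpa*, the enzyme that uncovers the tag, was higher (3.32), and *Igf2r*, the cation-independent receptor for it, was lower, at 1.13 and 0.915 CPM against means of 17.0 and 21.8 CPM (−2.95). *M6pr*, which encodes the other receptor, was higher, at 135 and 124 CPM against means of 86.8 and 85.8 CPM (1.24). *Tfe3* (2.75), *Mitf* (2.38) and *Tfeb* (1.70), of the MiT/TFE family, were higher in microglia-like cells. *Tfec* had 0 UMIs in all non-myeloid classes and stood at 0.986 and 0.549 CPM in microglia-like cells. It was higher in macrophage-like than in microglia-like cells (log2 3.75 ± 0.63, edgeR adjusted p = 0.001173). Between macrophage-like and microglia-like cells, 10 of the 86 genes were higher and 22 lower in macrophage-like cells, where 6.32% and 12.5% of all genes were. The median was −0.21, against −0.24 over all genes.

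**Figure D5:**
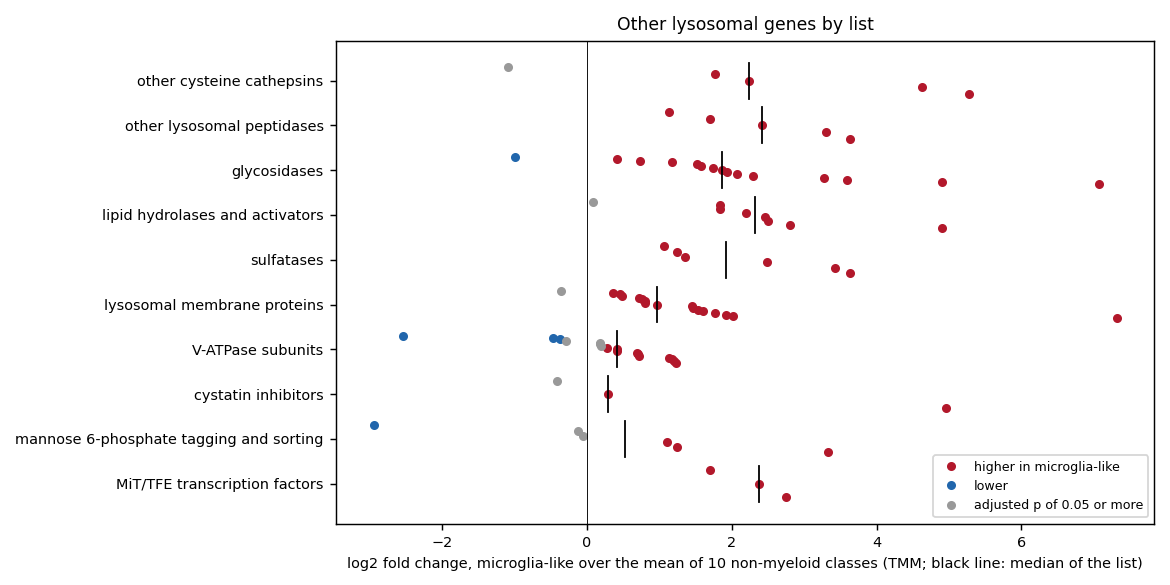
Log2 fold change in microglia-like cells over the mean of 10 non-myeloid classes (TMM scaling) for 85 other lysosomal genes by list, coloured by call, with the median of each list as a black line; *Tfec*, at 0 in all non-myeloid classes, is left out. Medians run from 0.29 for cystatins to 2.42 for the other peptidases, and *Laptm5* (7.32) lies furthest right.

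The genes whose pattern over the classes was most like that of each member were ranked by Pearson's r on log2(CPM + 10) over 24 points, 12 classes in 2 libraries, which share libraries and depth. *Ctss* was closest to *Csf1r* (r = 0.993), *Trem2* (0.990) and *Ly86* (0.990), and *Cd68* to *Ptpn6* (0.993), *Fcgr1* (0.991) and *Cd86* (0.991), all of which are known from myeloid cells. *Ctsb* and *Hexa* were among each other's 3 closest genes (0.943), and *Ctsb* and *Lgmn* both had *Ctsa* among theirs (0.924 and 0.954). *Ctsl* was closest to *Naglu* (0.926), another lysosomal hydrolase. *Lamp1* was closest to *Stxbp3* (0.914), followed by *Gna12* (0.911) and the myelin gene *Pmp22* (0.899).

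On GRCm38, *Ctsb* lies at chr14:63122462-63145923 on the plus strand, *Ctsl* at chr13:64359337-64370890 on the minus strand, *Ctsz* at chr2:174427493-174439039 on the minus strand and *Lgmn* at chr12:102394084-102439813 on the minus strand. *Hexa* lies at chr9:59539540-59565109 on the plus strand, *Lamp1* at chr8:13159161-13175338 on the plus strand and *Cd68* at chr11:69664213-69666153 on the minus strand. Of the 9 members, 5 overlap a counted gene on the opposite strand, namely *Ctsb* with *Fdft1*, *Ctsl* with *Gm47123*, *Ctsz* with *Nelfcd*, *Hexa* with *Tmem202* and *Lamp1* with *Grtp1*. The sources used here do not say whether counting used the strand, so that reads in the overlaps cannot be assigned with certainty.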

How the data were processed

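The data were 2 libraries of single striatal cells on the 10x Genomics platform. The deposited matrices hold UMI counts without normalization, which the authors made on mm10 with Cell Ranger, version 4.0 in the submitters' processing notes. The paper's methods name another version. How many mice gave each library, and which reagent kit, is not given in the sources used here. The paper's methods give only a total number of mice for its striatal single-cell data.

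Barcodes had to show at least 300 genes, and genes had to occur in more than 3 cells. Scrublet (scanpy 1.11.5, expected rate 6%) marked 96 and 159 doublets, which were removed. Seurat 5.3.0 integrated the libraries by canonical correlation analysis (2000 variable genes, 30 components) and clustered them by the Louvain method at resolution 0.32. The study's resolution of 0.08 had been planned as the main setting. There a cluster merged astrocyte-like, ependymal-like and neuron-like cells, so this resolution became the alternative after the data were seen. At 0.08 the fit held 10 classes, with no fibroblast-like or progenitor-like class. Clustering did not use the 9 members and 90 other lysosomal genes. Clusters received a name where at least 3 markers were raised 2-fold and 1 was among its 50 leading genes. A cluster with a single leading marker also needed at least 50% of that class's markers raised and no other class with a larger share, a rule added after its member levels were known, which left 1 cluster unnamed. The erythroid-like class, with under 20 cells in library 2, was not fitted.

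Counts were summed per class and library and tested in edgeR 4.0.16 (R 4.3.3; filterByExpr, TMM, quasi-likelihood, prior count 2), with adjusted p under 0.05 as the threshold over all genes tested. The library was a block: its classes share a suspension, and the pairing thus follows from the design. On counts simulated for 13997 genes, the fit recovered 99.5% of 200 genes changed 3-fold for microglia-like cells against the non-myeloid mean, with 11 false calls, and 85.5% for macrophage-like against microglia-like cells, with 7. The simulated classes shared the same mean profile apart from these genes. The simulation therefore does not cover the scaling shifts between the real classes. DESeq2 1.42.0 was an alternative. Levels carry exact Poisson intervals, and shares exact binomial ones, that cover counting error only. Named genes were the members, the genes of each wider list with the largest and smallest fold change, *Cst3*, *Ctsc*, *Lamp2*, *Tfeb* and *Tfec*, the 3 genes most like each member, and class markers. *Bmp4*, *Fyn*, *Ccl4*, *Mitf* and *M6pr* were named after their values were seen. Some genes that these rules name are not reported here. The members and lists were chosen with earlier results of these data known. Motifs were searched on both strands of RefSeq promoter windows of GRCm38.p6, and positions are from an annotation of GRCm38.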

Additional observations from a re-analysis of the deposited data

Results flagged for a closer look

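Some member RNA lay in cells that the comparisons did not use, above the limit that a count of 0 allows (3 UMIs per library). The summed level of the 9 members was 195.1 and 224.6 CPM in the barcodes under 300 detected genes of libraries 1 and 2, and 265.7 and 366.9 CPM in erythroid-like cells. In barcodes called doublets it was 9045 and 5057 CPM. In the unnamed cluster led by *Bmp4*, *Fyn* and *Gpr17* it was 5037 and 5409 CPM, above every non-myeloid class, the highest of which was the fibroblast-like at 3625 and 4082 CPM.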

How the results depend on the processing

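All 9 members were called higher in microglia-like cells than in the non-myeloid mean in each of the 12 alternatives run, and without either replicate no called member changed direction. The members' median log2 fold change ranged from 3.71 to 4.21. Fitted with no replicate block, 9 members were higher in microglia-like cells, 6 differed between macrophage-like and microglia-like cells, and 22 pairs of member and class in place of 23 were higher, *Hexa* in oligodendrocyte-like cells being lost (log2 0.38, edgeR adjusted p = 0.1047). No other of these 23 calls was lost without the block, and 68 in place of 71 genes of the wider lists were then higher. Between subclusters of microglia-like cells, 0 members were called, but 1 by DESeq2 and 3 (*Ctsl*, *Ctss* and *Lgmn*) at subcluster resolution 0.2. At that resolution other cells were compared, a subcluster of 139 and 75 cells against one of 799 and 804.

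Most directions that turned were small values that the main fit did not call, and for most the cause was not tested. Between microglia-like subclusters none was called. Those of *Ctsb*, *Ctsd*, *Ctsz* and *Hexa* became −0.039, −0.063, −0.027 and −0.029 with all genes having at least 1 UMI, and −0.058, −0.082, −0.047 and −0.048 with library sizes alone, where *Lgmn* was at −0.006. In macrophage-like over microglia-like cells, *Hexa* and *Lamp1* turned to 0.004 and 0.059 with at least 500 detected genes, 0.233 and 0.249 with DESeq2, 0.151 and 0.16 with library sizes alone, and 0.071 and 0.074 under 20% mitochondrial UMIs. *Cd68* turned to −0.247 with cells thinned to 1000 UMIs. Called differences turned too, and neither was called after the turn. *Ctsz* in fibroblast-like cells went from 0.60 to −0.036 with thinned cells, and *Hexa* in oligodendrocyte-like cells from 0.38 to −0.26 with library sizes alone. Thinning leaves fewer UMIs, and calls of higher genes in the wider lists fell from 71 to 52. The 2 libraries, the shallow fibroblast-like class and the class names rebuilt here limit precision. Counts with the unnamed cluster taken as OPC-like, an alternative chosen after the data were seen like those at resolution 0.08 and without clusters under 2000 median UMIs, were 9, 6, 24 and 68 for the members, the macrophage-like comparison, the pairs and the wider lists.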
